A study of Bos taurus with 12 samples.

Results

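bta-miR-143 and bta-miR-145, the paired miRNAs of a single gene cluster, were examined in small RNA libraries from the mammary gland of 12 Chinese Holstein cows. The members were chosen by name, and they make up 2 of the 388 mature miRNAs measured, each with 1 precursor entry. The cows formed 4 groups of 3. HP and LP cows, with a high and a low percentage of milk protein, were sampled in lactation. HD and LD cows, again high and low, were sampled while not lactating. All cows were multiparous and healthy, their ages are not given in the sources used here, and the groups were selected on milk protein records rather than made by a treatment. Each library was made from a surgical biopsy of the rear udder, so it holds the RNA of all cell types of the piece taken. Levels are in TPM, the study's name for the reads of a miRNA scaled to a common total of miRNA reads in each library, with no correction for length.

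miR-143 and miR-145 are cut from a common primary transcript, and their mature sequences are unrelated, so they recognise different targets. Both are known as miRNAs of contractile smooth muscle, where serum response factor and its cofactor myocardin switch on the primary transcript, and both are also made by fibroblasts and other mesenchymal cells. In the mammary gland, smooth muscle lies in the walls of blood vessels, and the myoepithelial cells that squeeze milk out of the alveoli use many of the same contractile genes. In the RefSeq annotation of the assembly ARS-UCD2.0, which is not the assembly the reads were mapped to, the genes MIR143 and MIR145 are neighbours with 0 genes starting between them. A long non-coding RNA gene, LOC132345768, spans both. The nearest protein-coding genes on either side are IL17B, which encodes a cytokine, and CSNK1A1, which encodes casein kinase 1 alpha.

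miR-143 was the most abundant of the 388 miRNAs by mean TPM, ahead of miR-148a, a miRNA known to be abundant in the mammary gland and milk. Its level was 58515, 84386 and 73197 TPM in HP libraries 1 to 3, and 119708, 144971 and 112780 TPM in the LP libraries. In the non-lactating period it was 79221, 121068 and 105596 TPM in HD, and 127769, 224174 and 111176 TPM in LD. miR-143 thus ranked between 1st and 4th in each of the 12 libraries, with the lowest TPM in a HP library and the highest in a LD library. Libraries LP 2, HD 2, LD 1 and LD 2 had miR-143 as their most abundant miRNA. The 3 HP libraries, LP 1 and LP 3 had miR-148a, HD 1 and HD 3 had miR-26a, and LD 3 had miR-30a-5p. As a share of the TPM summed over the 388 miRNAs, miR-143 took 7.51 to 10.6% in HP, 13.3 to 17.9% in LP, 10.6 to 16.3% in HD and 14.0 to 28.1% in LD. In such bulk tissue, fewer cells of a type and less of the miRNA per cell cannot be told apart.

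**Figure D1:**
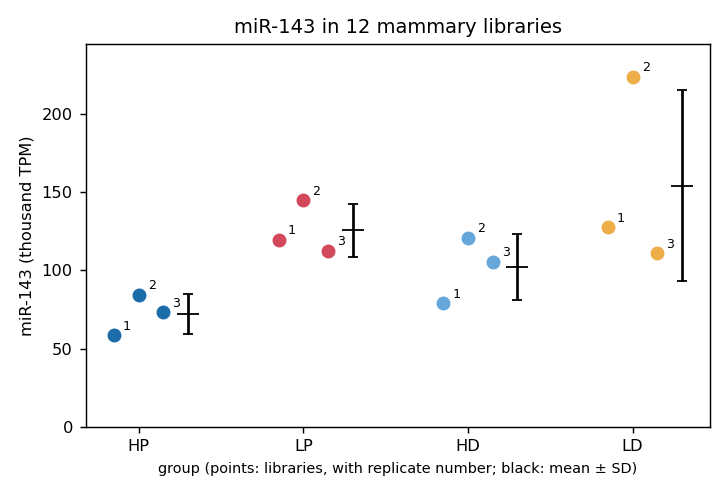
miR-143 level in TPM, with the vertical axis marked in units of 1000 TPM, for the 3 libraries of each group (horizontal axis), with replicate numbers beside the points and the mean ± SD in black. The LP points lie above all HP points, and LD library 2, at 224174 TPM, stands above the other 11 libraries.

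The first comparison asked which miRNAs differed between HP and LP cows, that is with milk protein percentage while the cows were lactating. miR-143 was higher in LP than in HP, at 125820 ± 16943 TPM against 72033 ± 12975 TPM (SD, n = 3 each). After division by size factors, which put the libraries on a common scale, the means were 126998 ± 15531 in LP and 70947 ± 12545 in HP, and the 3 LP libraries lay above the 3 HP libraries. Groups that did not overlap were found for 19.8% of all miRNAs in this comparison. The log2 fold change of LP over HP was 0.85 with an SE of 0.27 and a 95% confidence interval of 0.25 to 1.45, a 1.80-fold higher level. By the limma test miR-143 met the rule for DE miRNAs, an unadjusted p under 0.05 with an absolute log2 fold change over 0.8, and its p ranked 17th of 388. The Benjamini-Hochberg adjusted p of limma was 0.224, so miR-143 did not pass with correction, and 0.258% of the miRNAs did. The same DE rule was met by 10.1% of all miRNAs, and by 5.93% with the higher level in LP. The median over the 388 miRNAs was a log2 fold change of -0.01. The exact permutation test gave p = 0.1, two-sided, the smallest that 3 against 3 libraries allow. The DE rule was no longer met without HP library 1 (log2 fold change 0.75) or without LP library 1 (0.76), where the fold change fell below the limit, or in 1 fit over all 12 libraries (0.90, limma adjusted p = 0.435), where the unadjusted p was above the limit.

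In the non-lactating period miR-143 averaged 154373 ± 61016 TPM in LD and 101962 ± 21158 TPM in HD (SD, n = 3 each). In TPM the groups overlapped, since LD library 3 at 111176 TPM lay below HD library 2 at 121068 TPM. After size factors over the 12 libraries they overlapped through LD library 1. It was at 85176, below HD library 2 at 108603 and HD library 3 at 113246. The log2 fold change of LD over HD was 0.79 with an SE of 0.57 and a 95% confidence interval of -0.53 to 2.11, and it did not meet the DE rule (limma adjusted p = 0.993). That interval includes both no difference and the size seen in lactation. In this comparison 3.35% of all miRNAs met the DE rule, 2.06% with the higher level in LD, and 10.3% had groups that did not overlap. Benjamini-Hochberg adjusted limma values under 0.05 were found for 0% of the miRNAs, with 19 of 388 at an unadjusted p under 0.05. The value moved widely when single libraries were left out. Without LD library 2 the log2 fold change was 0.30, without HD library 1 it was 0.44, and without LD library 1 it was 1.24.

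**Figure D2:**
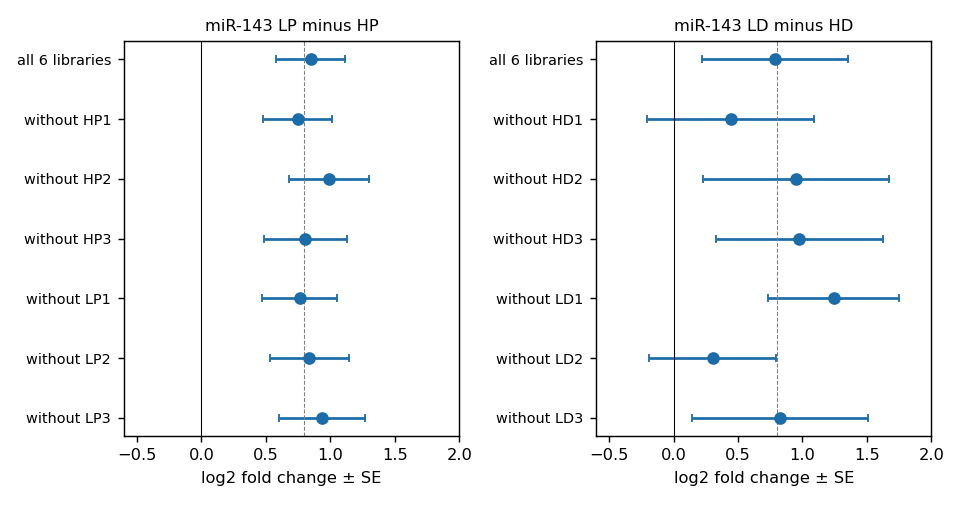
Log2 fold change ± SE of miR-143 from limma (horizontal axes) for LP over HP and for LD over HD, with all 6 libraries and with each library left out in turn (vertical axes). The dashed line marks the limit of 0.8 of the DE rule, and the values span 0.75 to 0.99 in lactation and 0.30 to 1.24 in the non-lactating period.

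The phenotype difference in miR-143 was then compared between the stages in 1 fit over the 12 libraries. The difference in the non-lactating period minus that in lactation was -0.07 on the log2 scale with an SE of 0.61 (limma adjusted p = 0.993), so the data did not show that the stages differ in this respect, and the SE leaves room for a sizeable difference either way. Across all miRNAs 5.15% had an unadjusted p under 0.05 in this test and 0% passed with Benjamini-Hochberg adjustment. The level of miR-143 itself did not pass the test between stages. The non-lactating period minus lactation was 0.26 on the log2 scale, with an SE of 0.30 and a 95% confidence interval of -0.40 to 0.91 (limma adjusted p = 0.523), whereas 44.3% of all miRNAs passed at this stage comparison and 21.9% had stages that did not overlap. The stage value of miR-143 moved with single libraries, to 0.02 without LD library 2, 0.15 without HD library 3, 0.44 without HD library 1 and 0.46 without LD library 1. The order of the normalized group means was HP, HD, LP and LD from low to high. Neighbours in that order were HD over HP with a difference of 0.29 on the log2 scale (exact permutation p = 0.4), LP over HD with 0.60 (exact permutation p = 0.1) and LD over LP with 0.22 (exact permutation p = 0.8). LP and HD, which differ in both stage and phenotype, did not overlap after size factors. In TPM they overlapped, since HD library 2 at 121068 TPM lay above LP library 1 at 119708 TPM. The share of all miRNAs without overlap between LP and HD was not computed.

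miR-145 was the rare member of the pair and ranked 217th of 388 by mean TPM. Its level was 73.67, 4.57 and 9.67 TPM in the HP libraries, and 4.56, 35.52 and 4.92 TPM in the LP libraries. In the non-lactating period it was 7.78, 12.02 and 4.62 TPM in HD, and 6.07, 11.29 and 3.11 TPM in LD. HP library 1 and LP library 2 thus stood apart from the other 10 libraries, which lay between 3.11 and 12.02 TPM. The 95% Poisson intervals of those high libraries, 67.0 to 80.9 TPM in HP library 1 and 32.1 to 39.2 TPM in LP library 2, did not reach the level of any other library. They cover counting error only, and they rest on read numbers inferred from the deposited values, which a stricter check for whole reads did not accept in most libraries. By that inference the levels correspond to between 39 and 444 reads, and the value of 3 reads lay between 0.127 and 0.498 TPM, so miR-145 was above that floor in each of the 12 libraries. HP library 1 also had the fewest implied reads over the miRNA entries, 6026620. This is not its sequencing depth, and the paper reports nearly even totals of clean reads for the libraries. Whether the low number of miRNA reads bears on its high miR-145 level was not tested.

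**Figure D3:**
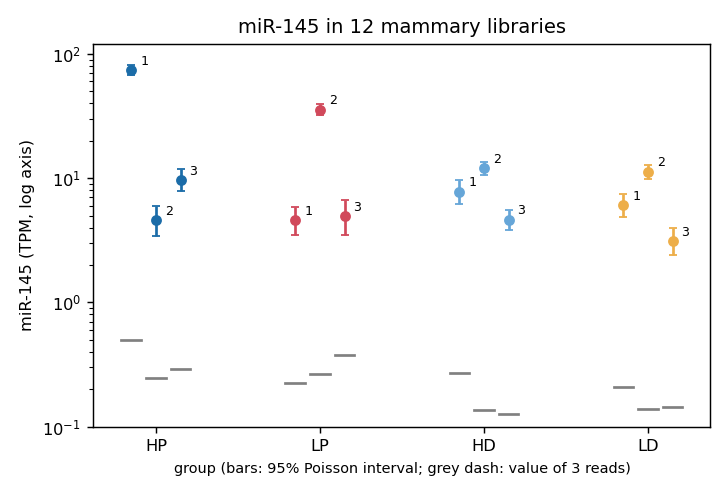
miR-145 in TPM on a log axis (vertical) for the 3 libraries of each group (horizontal), with 95% Poisson intervals as bars, replicate numbers beside the points and the value of 3 reads as a grey dash for each library. HP library 1 (73.67 TPM) and LP library 2 (35.52 TPM) lie above the other 10 libraries, which lie between 3.11 and 12.02 TPM.

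No comparison of miR-145 passed a test. LP minus HP was -0.61 on the log2 scale with an SE of 0.94 and a 95% confidence interval of -2.71 to 1.50 (limma adjusted p = 0.858). The sign rested on HP library 1, without which the value was 0.52. LD minus HD was -0.07 with an SE of 0.54 and a 95% confidence interval of -1.34 to 1.2 (limma adjusted p = 0.993). The non-lactating period minus lactation was -0.85 with an SE of 0.64 and a 95% confidence interval of -2.23 to 0.54 (limma adjusted p = 0.301), and it was -0.28 without HP library 1 and -0.46 without LP library 2. The phenotype difference by stage was 0.53 with an SE of 1.27 (limma adjusted p = 0.993). These intervals are wide enough to hold differences larger than the one measured for miR-143. The normalized group means, taken before the log2 scale, ran from HD through LD and LP to HP. On the log2 scale HD and LD stood in the other order, with LD minus HD at -0.04. There LP exceeded LD by 0.58 and HP exceeded LP by 0.57. The exact permutation p values were 1, 0.5 and 0.7 in turn, so no neighbours in the order could be told apart.

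The spread between cows of a group was wider for miR-145 than for miR-143 in lactation, and similar in the non-lactating period. As an SD of log2 levels, it was 2.00 for miR-145 against 0.25 for miR-143 in HP, and 1.34 against 0.16 in LP, the groups that hold the high libraries HP 1 and LP 2. In HD it was 0.55 for miR-145 against 0.62 for miR-143, and in LD 0.95 against 0.90. The SD within groups, pooled over the 4 groups on the log2 scale, was 1.32 for miR-145, the 8th highest of 388 miRNAs, and 0.56 for miR-143, the 98th highest. The median of all miRNAs was 0.40. Of 101 miRNAs with a mean within 3 times that of miR-145, 3 had a larger SD, and the median of the 101 was 0.45.

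The ratio of the members was taken within each library, where library scaling cancels for levels divided as TPM. Divided as TPM, miR-143 exceeded miR-145 by 794 times in HP library 1 and by 35748 times in LD library 3, with a median of 19161 times over the 12 libraries. These are ratios of reads and not of molecules in the tissue. Whether the libraries captured both miRNAs with equal efficiency was not tested. The log2 scale used for the tests adds 1 to each normalized level, so scaling does not cancel fully there. On it the ratio was 9.62, 13.89 and 12.73 in HP, and 14.45, 11.95 and 14.23 in LP. It was 13.06, 13.17 and 14.22 in HD, and 14.04, 14.18 and 14.81 in LD. The lowest ratios belonged to HP library 1 and LP library 2, the libraries with the most miR-145. LP exceeded HP by 1.46 (exact permutation p = 0.5), LD exceeded HD by 0.86 (exact permutation p = 0.3) and the non-lactating period exceeded lactation by 1.1 (exact permutation p = 0.201). None of the 3 passed a test, and for the phenotype comparisons, with 3 libraries against 3, no p under 0.1 was possible. LP minus HP rested on single libraries, at 0.23 without HP library 1, 2.37 without HP library 2 and 2.26 without LP library 2. The stage difference was 0.46 without HP library 1.

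No correlation between the members passed a test. Over the 12 libraries the Pearson correlation of their log2 levels was r = -0.06 (permutation p = 0.841, adjusted over 3 relations 0.841) and Spearman's rho was 0.03 (permutation p = 0.920, adjusted 0.920). Without HP library 1 and LP library 2, the libraries farthest from the median of miR-145, r was 0.44 over 10 libraries. Within lactation r was -0.40 (exact permutation p = 0.429, adjusted 0.644) and rho was -0.31 (exact permutation p = 0.564, adjusted 0.846). Within the non-lactating period r was 0.62 (exact permutation p = 0.199, adjusted 0.596) and rho was 0.31 (exact permutation p = 0.564, adjusted 0.846). With the 2 farthest libraries left out, these became r = -0.61 in lactation and r = -0.55 in the non-lactating period, each over 4 libraries, so the sign in the non-lactating period rested on those libraries.

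**Figure D4:**
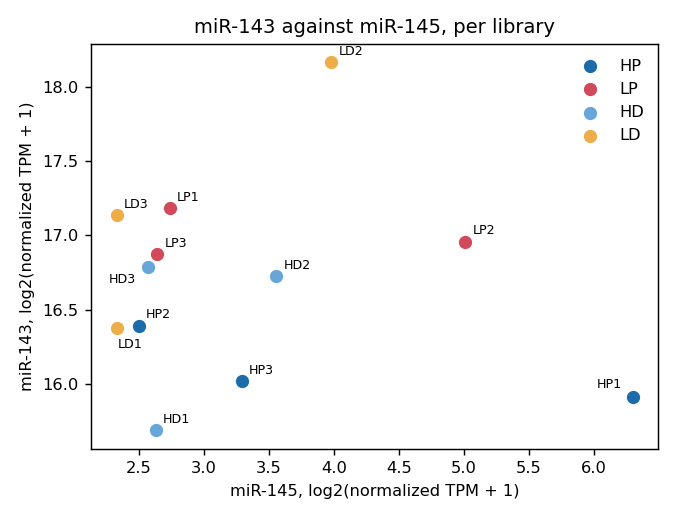
miR-143 (vertical axis) against miR-145 (horizontal axis), both as log2 of normalized TPM + 1, with 1 labelled point for each of the 12 libraries. HP library 1 and LP library 2 lie farthest to the right, HP library 1 among the lowest and LP library 2 near the middle of the miR-143 range, and r over the 12 libraries was -0.06.

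The pair was set beside other miRNA genes that lie near each other. This comparison was chosen after the values were seen and is a description, with no test. Of 385 precursors, 379 were matched to the RefSeq table, and these gave 99 pairs of neighbouring miRNA genes no more than 10 kb apart. miR-143 and miR-145 had the widest gap in level, with an absolute log2 ratio of their mean TPM of 12.90, where the other 98 pairs had a median of 2.91 and a maximum of 11.58. The correlation of the other pairs over the 12 libraries ran from -0.69 to 0.98 with a median of 0.62, and 9 of the 98 had a lower r than the -0.06 of miR-143 and miR-145. Other pairs with a rare member mostly had a positive r. In 30 pairs whose rarer member had a mean within 3 times that of miR-145, the median r was 0.65 and 3 had a lower r. Pairs that share a miRNA share its values, so they are not independent.

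**Figure D5:**
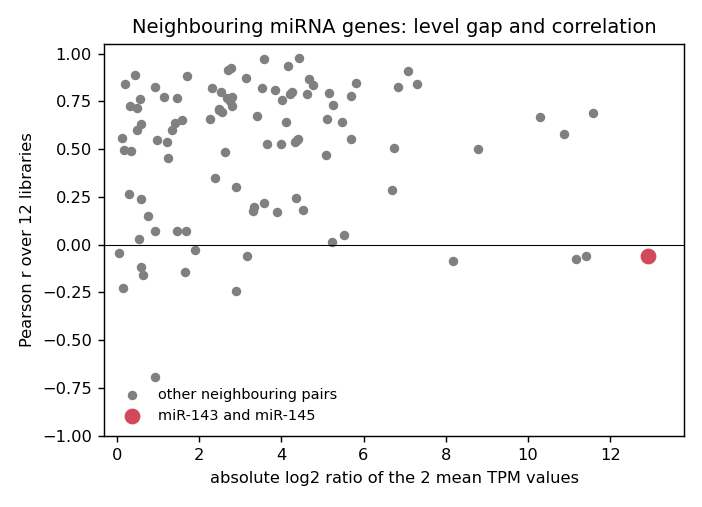
Pearson r over 12 libraries (vertical axis) against the absolute log2 ratio of the 2 mean TPM values (horizontal axis) for 99 pairs of neighbouring miRNA genes, with miR-143 and miR-145 in red. The red point lies farthest to the right, at 12.90, with an r of -0.06, while the other 98 pairs have a median r of 0.62.

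The miRNAs whose levels were most like those of each member were ranked by Pearson r over the 12 libraries among 233 miRNAs with a mean of at least 10 TPM. These correlations are descriptions, since the points share library, depth and scaling. For miR-143 the closest were miR-27a-3p (r = 0.87), miR-27b (0.85), miR-185 (0.77), miR-140 (0.77) and miR-486 (0.73). miR-27a-3p and miR-27b are members of 1 family, miR-140 is known from cartilage and miR-486 from red blood cells and muscle. Without LD library 2, the highest in miR-143, the values were 0.75, 0.73, 0.69, 0.68 and 0.48, so miR-486 depended most on that library. For miR-145 the closest were miR-28 (r = 0.84), miR-30c (0.79), miR-497 (0.70), miR-17-3p (0.68) and miR-494 (0.68). Without HP library 1 these were 0.59, 0.44, 0.69, 0.35 and 0.54, so miR-497 moved least and miR-30c and miR-17-3p lost most. The 5 miRNAs listed for miR-143 and the 5 listed for miR-145 had 0 names in common.

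Lists of miRNAs known to mark cell types were followed beside the pair, because a biopsy can hold more or less of each. Of the 7 mesenchymal and fibroblast miRNAs, which include the miR-199 family and miR-214, 0 met the DE rule of limma in HP vs LP, beside 10.1% of all miRNAs, and 0 in HD vs LD, beside 3.35%. At an unadjusted p under 0.05 alone, which 61 of the 388 miRNAs had in HP vs LP, the list had miR-125b, with a log2 fold change of -0.72, opposite in sign to miR-143 (limma adjusted p = 0.251). They summed to 19519 to 33772 TPM in HP, 18905 to 26298 in LP, 34532 to 48023 in HD and 32496 to 37195 in LD. Their median log2 fold change in HP vs LP was -0.16, beside -0.01 for all miRNAs and 0.85 for miR-143. Between stages, miR-199a-3p (0.63) and miR-214 (1.17) passed as higher in the non-lactating period, with the other 5 not passing. Across all miRNAs 44.3% passed that stage comparison, and the stage counts of the lists are to be read beside this share. Of 6 striated muscle miRNAs 4 were measured. They summed to between 94.0 and 742 TPM, most of it miR-133a, while miR-1, a defining skeletal and heart muscle miRNA, lay between 0.64 and 25.51 TPM. In either phenotype comparison 0 of the 4 met the DE rule, beside the shares of 10.1% and 3.35% given above. Between stages miR-499 passed as lower in the non-lactating period (-1.14). Both endothelial strands of miR-126 passed as lower in the non-lactating period. miR-126-5p met the DE rule as higher in LD than HD (1.15), beside 2.06% of all miRNAs, and did not pass with correction (limma adjusted p = 0.935).

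Of the 3 erythroid miRNAs, which are abundant in red blood cells, miR-144 and miR-451 met the DE rule as higher in LP than HP, the comparison in which miR-143 met it too, beside 5.93% of all miRNAs. Their log2 fold changes were 1.58 and 1.36, with limma adjusted p = 0.272 and adjusted p = 0.203, so neither passed with correction. miR-486 did not meet the rule (0.20). The 3 summed to 781 to 1378 TPM in HP and 1126 to 2041 TPM in LP, ranges that overlap. In HD vs LD 0 of the 3 met the rule, beside 3.35% of all miRNAs. Their log2 fold changes of LD over HD were 2.18 for miR-144, 1.57 for miR-451 and 1.74 for miR-486. Each was above its value in HP vs LP, but the unadjusted p missed the limit (limma adjusted p = 0.993 for each). The 3 summed to 413 to 773 TPM in HD and 680 to 6127 TPM in LD. LD library 2, the library highest in miR-143, held the 6127 TPM, and the other 11 libraries lay between 413 and 2041 TPM. Whether blood in the biopsy bears on the miR-143 level was not tested.

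Of the 6 epithelial miRNAs 0 met the DE rule in HP vs LP, beside 10.1% of all miRNAs, and 0 in HD vs LD, beside 3.35%. At an unadjusted p under 0.05 alone, which 61 of the 388 miRNAs had in HP vs LP, the list had miR-200b. Its log2 fold change of LP over HP was 0.65 (limma adjusted p = 0.251). The 5 miRNAs of the miR-200 family, which keep epithelial identity, passed as lower in the non-lactating period, and miR-205 did not pass. In the phenotype difference by stage, miR-200b had an unadjusted p under 0.05, beside 5.15% of all miRNAs, and its adjusted p did not pass. Of the 5 leukocyte miRNAs, miR-150 met the DE rule as lower in LP than HP (-1.69, limma adjusted p = 0.251), beside 10.1% of all miRNAs in either direction. miR-142-5p and miR-142-3p met it as higher in LD than HD (limma adjusted p = 0.935 for each), beside 2.06% of all miRNAs. None of these calls passed with correction. Between stages miR-142-5p and miR-155 passed as higher in the non-lactating period.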

How the data were processed

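Small RNA libraries were made from mammary biopsies of 12 cows, 1 library per cow, so p-values measure the spread between cows. The authors trimmed reads with Cutadapt and Trimmomatic, kept 18 to 30 nt, mapped them with Bowtie allowing 1 mismatch, counted known miRNAs with miRDeep2, and deposited RPM values, which they call TPM. These are not corrected for length. The deposited table holds 426 entries, each over 0.5 TPM in at least 2 libraries. Each of 388 mature miRNAs was represented by its most abundant precursor entry. The number of reads over the miRNA entries was inferred from the value of 1 read. It ran from 6026620 to 23577193 per library (median 10732360 for lactation, 21207958 for non-lactating cows). It is not the sequencing depth, for which the paper reports nearly even totals of clean reads. Intervals cover counting error only. A stricter check for whole reads did not accept most libraries, so read numbers are approximate.

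Values were scaled by median-of-ratios size factors and put on the log2(TPM + 1) scale, which understates changes of low miRNAs. All 388 miRNAs were fitted in R 4.3.3 by limma 3.58.1 (moderated by empirical Bayes, with a trend). HP vs LP and HD vs LD used 6 libraries each, with DE miRNAs at an unadjusted p under 0.05 plus a log2 fold change above 0.8 in size. The stage comparison and its interaction used 12 libraries and 4 group means, and the stage comparison was called at a Benjamini-Hochberg adjusted p under 0.05. The authors' own test used read counts, which were not used here. Exact permutation tests were two-sided and used scipy 1.17.1 in Python 3.11.15, and permutation p values over 12 libraries used 100000 resamples. The scripts were tested on simulated data.

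Both members were named in full, with the 5 miRNAs most correlated with each among those with a mean of at least 10 TPM, miR-148a, and the cell type lists by counts and summed level. Members and lists were chosen with earlier results of these data known. The alternatives left out the size factors, the 10 most abundant miRNAs from their computation, the trend or each library in turn, used a pseudocount of 0.1 or 5, kept miRNAs averaging 10 TPM or more, kept every precursor entry, added a replicate block or fitted 12 libraries together.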

Additional observations from a re-analysis of the deposited data

Results flagged for a closer look

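LD library 2 stood apart in miR-143, with 224174 TPM where the other 5 non-lactating libraries lay between 79221 and 127769 TPM. Its gap to the next library was 0.665 of the range of the 6, above Dixon's critical value for 6 samples at the 95% level. Chance alone would mark about 1 in 20 such sets, and 6 sets were examined. The flag holds for TPM without size factors and was not computed on the log2 scale of the tests. After size factors over the 12 libraries, LD library 2 was at 293555, and the other non-lactating libraries lay between 52821 and 143814. The same library held the highest sum of erythroid miRNAs, 6127 TPM, and the part of that in the miR-143 level was not tested.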

How the results depend on the processing

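The higher level of miR-143 in LP held its direction under each alternative run. Its log2 fold change was 0.90 in 1 fit over 12 libraries, where the unadjusted p missed the limit, and between 0.75 and 0.99 with each library left out, with the DE rule lost without HP library 1 or LP library 1. Directions that turned when 1 library was left out had ranges of -0.52 to 0.36 for the phenotype difference by stage of miR-143, -1.41 to 0.52 for LP minus HP of miR-145, -0.64 to 0.25 for LD minus HD of miR-145, -0.60 to 1.31 for the phenotype difference by stage of miR-145 and -0.25 to 0.36 for the correlation of the members. That correlation was 0.15 on deviations from the group means. The cause of these changes was not tested. Without size factors the median over all miRNAs in HD vs LD moved, as a log2 fold change, from 0.03 to -0.16, and that of miR-143 was 0.55.

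Replicate numbers were shared by groups of different cows and same-numbered libraries did not all deviate together. Their correlations were -0.20, -0.26 and 0.01 in lactation and 0.54, -0.11 and 0.50 in the non-lactating period. Different-numbered pairs ran from -0.15 to 0.28 in lactation and from -0.63 to 0.29 in the non-lactating period. The values of 0.54 and 0.50 thus lay above all different-numbered pairs of their stage. Whether the replicate number marks something the libraries share was not tested. With the replicate block, the count of DE miRNAs was 34 in HP vs LP, beside 39 without it, and 17 in HD vs LD, beside 13. In that fit miR-143 had a log2 fold change of 0.85 in lactation (limma adjusted p = 0.359) and 0.79 in the non-lactating period (limma adjusted p = 0.591). For HD vs LD the SE of miR-143 was 0.29 with the block, beside 0.57 without it. The unadjusted p of limma there came under 0.05 with the block and the fold change lay below the limit of 0.8. The block changed no call on the pair. miR-145 has no value in HD vs LD at a mean of at least 10 TPM, and edgeR and DESeq2 were not run, because whole reads were not established by the stricter check in most libraries. Of 195 results under an alternative, 172 kept their direction and their side of the threshold or moved by less than the spread between cows.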
